A study of Mus musculus with 4 samples.

Results

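The genes described here are 9 class I genes of the mouse major histocompatibility complex (MHC) on chromosome 17: Gm8909, Gm7030, Gm11127, H2-T22, H2-T23, H2-T24, H2-M3, H2-K1 and H2-D1, of 49598 genes in the RefSeq annotation. They were examined for active chromatin that differed between embryonic stem (ES) cells of C57BL/6 (B6) mice and of diabetes-prone non-obese diabetic (NOD) mice. Both kinds of ES cell came from blastocysts and were grown in 2i, a pair of inhibitors of the kinases MEK and GSK3. ChIP-Seq was carried out with 1 antibody against histone H3 trimethylated at lysine 4 (H3K4me3, a mark of promoters) and 1 against histone H3 acetylated at lysine 27 (H3K27ac, a mark of active promoters and enhancers). There was 1 library for each strain and mark, 4 in all, so no value below has a replicate check and none has a test of the strains. How many cell lines or cultures a library stands for is not given in the labels.

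Each deposited list holds regions called in the named strain against the library of the other, and is called a B6 list or a NOD list here. In the H3K27ac lists, 8 B6 and 18 NOD regions had a score below 0, none of them at the genes described. A region belonged to a gene when, for H3K27ac, the file named that gene as the nearest, or when, for H3K4me3, the region touched the gene body or lay within 20 kb of a transcription start site (TSS). This gave 12 regions of the 31315 in the 4 lists. All 12 came from the B6 lists, with 10 of 7587 H3K4me3 regions and 2 of 5525 H3K27ac regions, and none came from the 12077 H3K4me3 or 6126 H3K27ac regions of the NOD lists. The absence from the NOD lists depended on the rule: taken by position in place of gene name, 2 NOD H3K27ac regions were counted, 1 of them inside the Gm8909 body, and a window of 50 kb gave 6 NOD H3K4me3 regions. The genes were selected on these same lists, with Gm8909 as the lead, so the direction is a description. Over all RefSeq genes the same rule gave a region to 18.4% in the B6 H3K4me3 list, 26.7% in the NOD H3K4me3 list, 8.59% in the B6 H3K27ac list and 9.28% in the NOD H3K27ac list. Of the 9 genes, 4 had a B6 H3K4me3 region (Gm8909, Gm7030, H2-M3 and H2-K1), 2 of these also had a B6 H3K27ac region (Gm8909 and Gm7030), and 5 had no region in any list.

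MHC class I molecules are cell surface proteins that pair with beta-2 microglobulin and display peptides from inside the cell to CD8 T cells. H2-K1 and H2-D1 encode the classical molecules, which nearly all somatic cells carry and which interferon raises, whereas pluripotent cells are known for low class I levels. The genes of the T and M regions encode non-classical molecules with narrower roles. H2-T23 encodes Qa-1, a ligand of inhibitory receptors on natural killer cells, H2-T22 is recognised by gamma delta T cells, and H2-M3 displays N-formylated peptides of bacteria and mitochondria. Gm8909, Gm7030, Gm11127 and H2-T24 are class I genes of the T region for which less is known. The NOD strain carries its own MHC haplotype, whose class I part joins a K gene of the d type to a D gene of the b type that B6 also has.

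The part of each promoter before the first annotated exon is shown for the genes the results turn on, from the RefSeq promoter table for GRCm38.p6, the same build as mm10, read 5′ to 3′ on the gene's strand. Of the 9 genes, 8 had an entry in that table. Gm8909 and Gm7030 carried most of the listed regions. H2-M3 and H2-D1 had sequences identical to NOD, H2-M3 with listed regions and H2-D1, a classical gene, without. The runs are chr17:36168603-36168787 (minus strand) for Gm8909, chr17:36129426-36129675 (minus) for Gm7030, chr17:37269984-37270233 (plus) for H2-M3 and chr17:35262844-35263093 (plus) for H2-D1. In Gm7030 the capitals mark the bases that differ from the promoter of Gm11127. In H2-M3 and H2-D1 they mark the motifs named below, and Gm8909 has no capitals because none of them was found.
Gm8909: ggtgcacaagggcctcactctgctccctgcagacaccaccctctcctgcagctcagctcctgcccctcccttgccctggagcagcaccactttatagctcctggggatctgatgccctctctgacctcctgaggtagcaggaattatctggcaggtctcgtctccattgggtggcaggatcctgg
Gm7030: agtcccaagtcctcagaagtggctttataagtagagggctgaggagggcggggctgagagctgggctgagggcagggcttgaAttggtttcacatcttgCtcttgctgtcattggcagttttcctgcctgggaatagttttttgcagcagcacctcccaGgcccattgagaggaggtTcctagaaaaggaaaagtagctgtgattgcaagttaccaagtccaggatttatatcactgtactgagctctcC
H2-M3: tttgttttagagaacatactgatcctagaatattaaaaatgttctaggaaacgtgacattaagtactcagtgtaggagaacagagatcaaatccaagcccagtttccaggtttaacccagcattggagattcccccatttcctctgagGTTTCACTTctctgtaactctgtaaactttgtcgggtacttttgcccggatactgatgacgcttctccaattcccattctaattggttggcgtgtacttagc
H2-D1: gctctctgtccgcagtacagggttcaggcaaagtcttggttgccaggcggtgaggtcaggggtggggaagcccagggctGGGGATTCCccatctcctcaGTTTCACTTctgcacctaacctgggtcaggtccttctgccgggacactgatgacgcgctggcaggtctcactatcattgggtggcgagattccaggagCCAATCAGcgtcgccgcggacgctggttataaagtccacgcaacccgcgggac

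The promoters of Gm7030 and Gm11127 were 98.0% identical, with 5 differences in the 250 bases before the TSS. Counted from 1 at the 5′ end of the printed run, with the base of Gm11127 first, these were G83A, T100C, T160G, C178T and T250C. Gm7030 had H3K4me3 regions in the B6 list and Gm11127 had none. In all, 4 motifs of class I promoters were searched on both strands in the 300 bases from 250 before to 50 after each TSS. The kappa B motif GGGGATTCC was found in H2-K1 and H2-D1 among the 9 genes, and in 0.25% of all 32851 promoters. The Y box CTGATTGG was found in H2-K1, H2-D1 and H2-T23, and in 4.1% of all promoters. The interferon-stimulated response element, read as GAAA, any 2 bases and GAAA again, was found in H2-T23, H2-T22, Gm11127 and Gm7030, and in 3.44% of all promoters. The form of that element in classical genes, GTTTCACTT, was added after the promoters had been read and was found in H2-K1, H2-D1, H2-T22 and H2-M3, and in 0.399% of all promoters. It overlaps the match of the longer element in H2-T22. Among 18 other class I genes with a promoter entry, 10 had the Y box and 5 had GTTTCACTT. The kappa B motif was found in 2 of them and the longer element in 0. In H2-D1 the kappa B motif began 171 bases, GTTTCACTT 151 bases and the Y box 53 bases before the TSS. In H2-M3, GTTTCACTT began 102 bases before the TSS. None of the 4 motifs was found in the window of Gm8909, the gene with the most tags.

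Gm8909 (chr17:36143812-36168602, minus strand, 24791 bp with its predicted transcripts) had 5 H3K4me3 regions in the B6 list. The widest, chr17:36167117-36168864, covered the TSS of the curated transcript and held 288 tags in the B6 library and 32 in the NOD library. Per 10000000 tags of each library, these were 195 tags in B6 and 14.1 in NOD. The B6 value was 13.8-fold higher (95% interval 9.59 to 20.6). By B6 tags this region was 11th of 7587 in the B6 list.

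The intervals here are exact conditional binomial intervals. They cover counting error only, since tags of 1 library are not replicate cultures. In all, 14791364 tags were counted in the headers for B6 H3K4me3 and 22750449 for NOD, 1.54 times as many.

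The next in size, chr17:36144914-36145685, lay at the far end of the Gm8909 body and covered the TSS of 2410017I17Rik, a long non-coding RNA gene on the other strand within the predicted Gm8909 body. It held 185 B6 tags and 34 NOD tags. B6 was 8.37-fold higher (95% interval 5.78 to 12.5). It was also within 20 kb of the TSS of Gm7030 and is counted for both genes.

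The other 3 regions of Gm8909 lay in the body, between these 2 promoters. The region chr17:36154609-36155708 held 57 B6 tags and 3 NOD tags, a 29.2-fold difference (95% interval 9.51 to 145.9). The region chr17:36157804-36158304, over the pseudogene Gm6659, held 34 B6 tags and 7 NOD tags, a 7.47-fold difference (3.26 to 19.97). The region chr17:36161204-36162201, centred on an exon of 2410017I17Rik, held 62 B6 tags and 1 NOD tag, a 95.4-fold difference (16.5 to 3827). With 1 to 7 NOD tags, these folds are set within wide limits, and they cannot be ranked against each other. Their centres were 13378, 10483 and 6834 bp downstream of the curated Gm8909 TSS, outside its curated transcript.

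Gm7030 (chr17:36127609-36129425, minus strand, 1817 bp), the neighbour of Gm8909, had 2 further H3K4me3 regions in the B6 list. The region chr17:36128584-36129659 covered its TSS and much of its body, and held 52 B6 tags and 2 NOD tags. B6 was 39.99-fold higher (95% interval 10.53 to 339). The region chr17:36110718-36111676, 18.2 kb downstream of the TSS, covered the annotated TSSs of BC023719 and H2-T-ps and held 53 B6 tags and no NOD tag. Against a floor of 3 tags for the NOD library, this region was 27.2-fold higher in B6, with a lower 95% limit of 21.3-fold.

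H2-M3 (chr17:37270234-37274485, plus strand, 4252 bp) had 2 H3K4me3 regions in the B6 list, both centred in introns and neither over its TSS. The region chr17:37270609-37271109, centred 0.625 kb downstream of the TSS, held 30 B6 tags and 4 NOD tags. B6 was 11.5-fold higher (95% interval 4.07 to 45.1). The region chr17:37272944-37273986, 3.23 kb downstream, held 41 B6 tags and 4 NOD tags. B6 was 15.8-fold higher (5.71 to 60.6). These were among the regions with the fewest B6 tags of the 10, whose range was 30 to 288.

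H2-K1 (chr17:33996012-34000619, minus strand), which encodes the K molecule, had 1 H3K4me3 region in its window and none in its body. The region chr17:33981306-33981938 lay 18.7 kb downstream of the TSS, just within the 20 kb limit, and covered the TSS of another gene, AA388235. It was also at -2.83 kb from the TSS of the class I pseudogene H2-K2. It held 85 B6 tags and no NOD tag, at least 43.6-fold higher in B6 against the floor of 3 tags.

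Over the 10 H3K4me3 regions there were 887 B6 tags and 87 NOD tags. Each region held more tags in B6 after scaling, by 7.47-fold to 95.4-fold with a median of 21.5-fold, with the 2 regions without NOD tags at their lower bounds. These values chose the regions. The median deposited fold over the whole B6 list was 13.8, where a region without NOD tags is given a fold against a fraction of a tag. Of the 10 regions, 8 were wider than the single peak size of 500 bp, compared with 16.6% of the B6 list. The median held 55 B6 tags, against 20 over the B6 list.

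**Figure D1:**
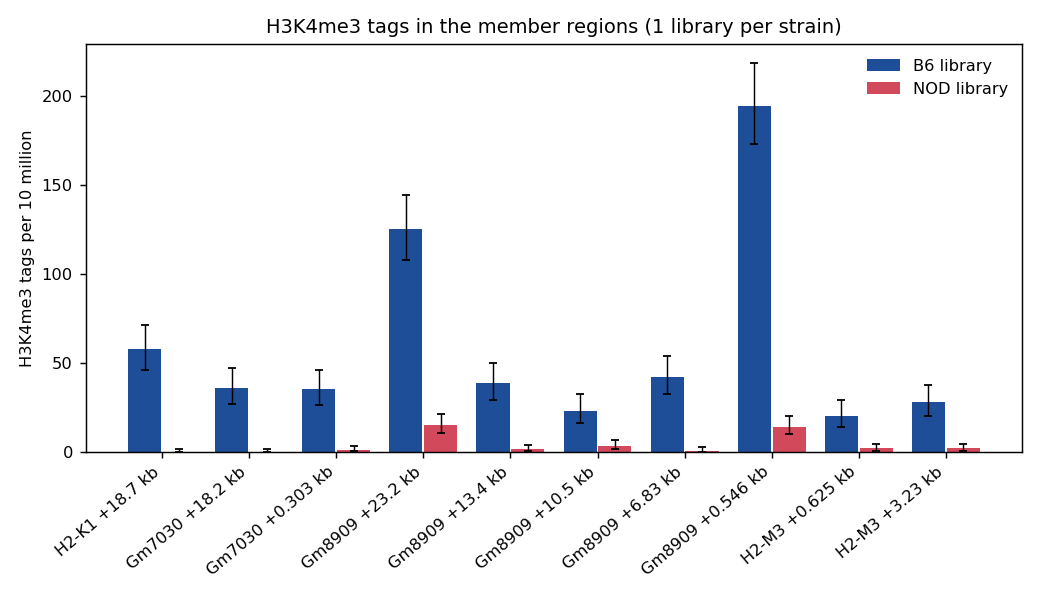
H3K4me3 tags per 10000000 tags of each library (vertical axis) in the 10 regions of the B6 list, named by gene and by the distance of the region's centre from the TSS (plus is downstream). Bars are the single B6 and NOD libraries and error bars are exact 95% Poisson intervals of the tag count. The region at the Gm8909 TSS stands at 195 in B6 and 14.1 in NOD.

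**Figure D2:**
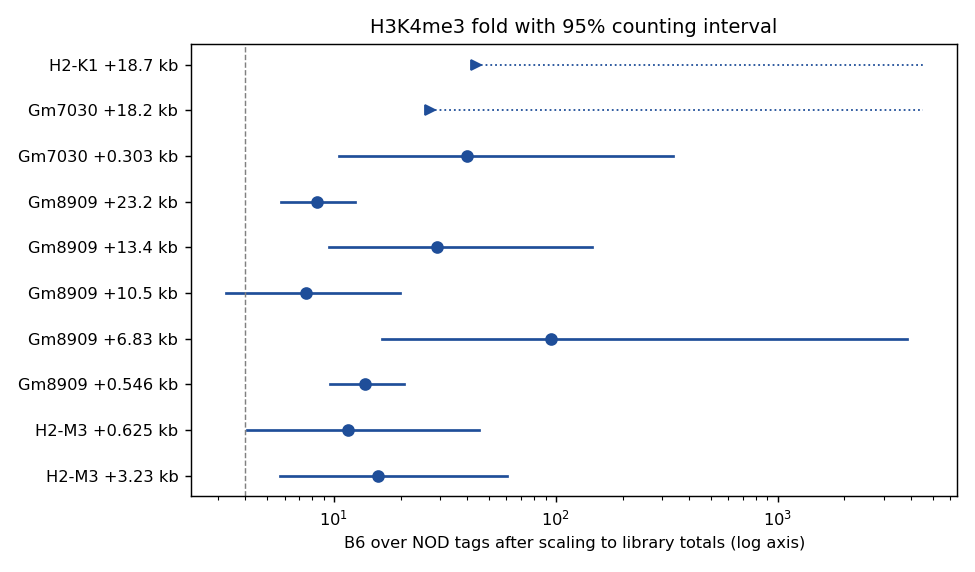
B6 over NOD tags for the same regions on a log axis, with exact 95% counting intervals. Arrows with dotted lines start at the fold against a floor of 3 tags for the 2 regions without NOD tags. Their lower 95% limits, 34.7 for the H2-K1 region and 21.3 for the Gm7030 region, are not drawn. The dashed line is the 4-fold minimum that the authors required. The interval of the Gm8909 region over Gm6659 reaches down to 3.26.

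H3K27ac was listed at Gm8909 and Gm7030, which also had a B6-list H3K4me3 region over their TSS. The region chr17:36168134-36169809 was named for Gm8909 in the B6 list, with a deposited score of 35.5, and its centre lay at -434 bp from the TSS. The region chr17:36130774-36131539 was named for Gm7030, with a score of 39.7, and lay in intergenic sequence at -1731 bp. The score is the authors' difference between the strains in units that are not given, and the H3K27ac files give no number of tags. By score these regions were 939th and 817th of 5525, where the median was 12.8.

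At Gm8909 both marks met: 731 bp of the H3K27ac region lay over the H3K4me3 region at the TSS, 43.6% of the smaller of the pair. At Gm7030 the H3K27ac region stood 1.11 kb away from the H3K4me3 region at the TSS. Gm8909 was thus the only one of the 9 genes with overlapping regions of both marks in 1 strain.

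The highest H3K27ac score in this stretch belonged to a region the files named for 2410017I17Rik, chr17:36148042-36148589, which lies inside the Gm8909 body, 2.36 kb from the H3K4me3 region at the start of that RNA. Its score was 194.3, 63rd of 5525 in the B6 list. A region of the NOD H3K27ac list, also named for 2410017I17Rik, lay in the same body at chr17:36154622-36154855 with a score of 18.4. All of it was inside the H3K4me3 region with 57 B6 tags and 3 NOD tags, so here the lists of the 2 marks named opposite strains. From the H3K4me3 region at H2-T-ps to the end of H2-T3, a stretch of 79.4 kb, there were 7 H3K4me3 regions in the B6 list and 0 in the NOD list, and 3 H3K27ac regions in the B6 list and 1 in the NOD list.

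**Figure D3:**
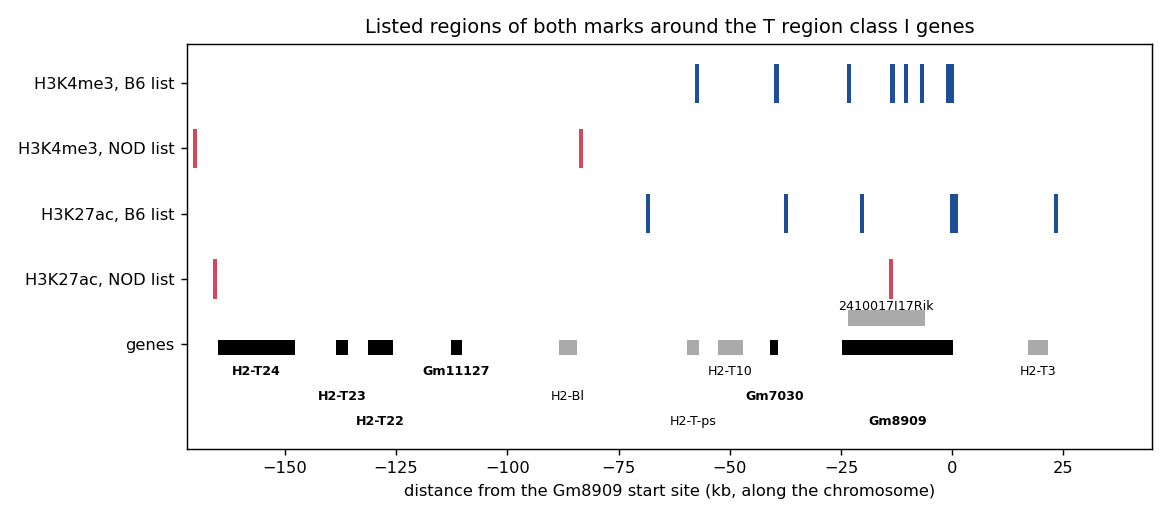
Listed regions of H3K4me3 and H3K27ac by strain list along the T region, in kb from the Gm8909 TSS along the chromosome. Black bars are the bodies of the genes described here and grey bars those of neighbours, and regions under 0.9 kb are drawn at that width. The B6 list has 7 H3K4me3 regions from H2-T-ps to Gm8909, and H2-T23, H2-T22 and Gm11127 have no region of any list over them.

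Gm11127, H2-T22, H2-T23, H2-T24 and H2-D1 had no region by these rules in any of the 4 lists. A list of strain differences does not say whether a gene bears the mark in both strains or in neither. Nearest to H2-T24 were regions of the NOD lists. The H3K4me3 region chr17:35997928-35998729, with 2 B6 tags and 39 NOD tags, lay 4.74 kb beyond the end of the gene and just over 20 kb from its TSS. The NOD H3K27ac region chr17:36002779-36003012, with a score of 22.1 and named for A930015D03Rik, lay 0.459 kb beyond that end. The nearest H3K4me3 region to Gm11127 was in the NOD list, 26.5 kb away at chr17:36084878-36085378, and held 1 B6 tag and 25 NOD tags. It was at -0.879 kb from the TSS of the class I gene H2-Bl. For H2-D1 the nearest was 36.4 kb away at chr17:35303906-35304406, again in the NOD list, with no B6 tag and 22 NOD tags. For H2-T22 and H2-T23 the nearest region of any list was in the NOD H3K27ac list, 34.1 and 27 kb away.

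Because reads of both strains were aligned to the B6 reference, the sequence of the regions was compared with NOD. GRCm38.p6 includes NOD contigs of this interval for the substrains NOD/MrkTac (4.26 Mb) and NOD/ShiLtJ (4.91 Mb), and the substrain of the NOD ES cells is not given in the labels. Each region was read as overlapping 50-mers, the read length, and a 50-mer counted as present when it occurred without a mismatch on either strand of either contig. A match anywhere on a contig counted, so related class I genes elsewhere can add to a share. A missing 50-mer does not mean that no NOD read aligned. The NOD-list H3K4me3 region chr17:35997928-35998729, for one, had a share of 23% and held 39 NOD tags. This comparison with NOD was added after the regions were known.

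The RefSeq annotation of both NOD contigs names H2-K1, H2-D1, H2-T24, H2-T23, H2-T22, Gm11127 and H2-M3, but not Gm8909 or Gm7030. Between H2-Bl and H2-T3, the B6 chromosome has 101.3 kb and 10 annotated genes, among them Gm7030, Gm8909, 2410017I17Rik and H2-T-ps. Both NOD contigs have 72.9 kb there without unknown bases, and 7 annotated genes. Only Gm6623 is named in both. A gene of similar sequence can carry another name on the contigs, so the sequence of each region was also compared.

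Of the 50-mers of the Gm8909 TSS region, 24.4% were present in NOD, and its best alignment had 87.35% identity over 1755 bp. Of those of the region at the start of 2410017I17Rik, 2.63% were present, with 86.45% identity. The other regions in the Gm8909 body had 41.6%, 26.1% and 7.27% of their 50-mers in NOD, in the order given above. In that order, their best alignments had 97.13% identity over 1080 bp, 96.61% over 501 bp and 92.52% over 1002 bp. In the 250 bases before the Gm8909 TSS, 54.7% of the 50-mers were present, with 97.98% identity over 248 bp. For the Gm7030 TSS region the share was 46.3%, and its best alignment had 98.42% identity. That alignment lay where the body and promoter of Gm11127 also aligned best. It is thus not a measure of a Gm7030 locus in NOD, which the contigs do not annotate. The H2-T-ps region had 24.6%, and the H2-K1 region 25.0%. The best alignment of the H2-T-ps region lay where the H2-T23 body aligned best, and that of the H2-K1 region spanned only 238 bp. The H3K27ac regions of Gm8909 and Gm7030 had 24.6% and 20.6%, and the region with the score of 194.3 had 2.61%. So 8 of the 10 H3K4me3 regions had fewer than 50% of their 50-mers in NOD.

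The 2 regions of H2-M3 stood apart: 100% of their 50-mers were present in NOD, and so was the whole gene body. With sequence identical in B6 and the NOD contigs, they held 30 and 41 B6 tags and 4 NOD tags each. At least 99.9% of the 50-mers of both regions were also found once in the B6 chromosomes.

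Of the genes without a region, H2-D1 also had 100% of the 50-mers of its body in NOD. The shares were 24.7% for H2-T23, 31.7% for H2-T22, 49.6% for Gm11127 and 52.8% for H2-T24. Among the genes with a region, the body of H2-K1 had 29.3%, that of Gm8909 24.3% and that of Gm7030 45.7%. These are shares of whole gene bodies, not of regions, and the lists do not say whether the genes without a region bear the mark. The promoters of Gm7030 and Gm11127 had their best NOD match at the same place, with 98.4% and 99.2% identity.

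Across the interval from H2-K1 to H2-M3 the 15 H3K4me3 regions of the B6 list that belonged to none of the 9 genes had a median share of 88.9% (range 21.7% to 100%), and the 32 of the NOD list 90.5% (23% to 100%). The 10 regions of the class I genes had a median of 25.6% (2.63% to 100%). Regions enter the NOD list only where NOD reads aligned to the B6 reference, so the shares in that list are not independent of the alignment. The part of the sequence differences in the tag counts was not tested.

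**Figure D4:**
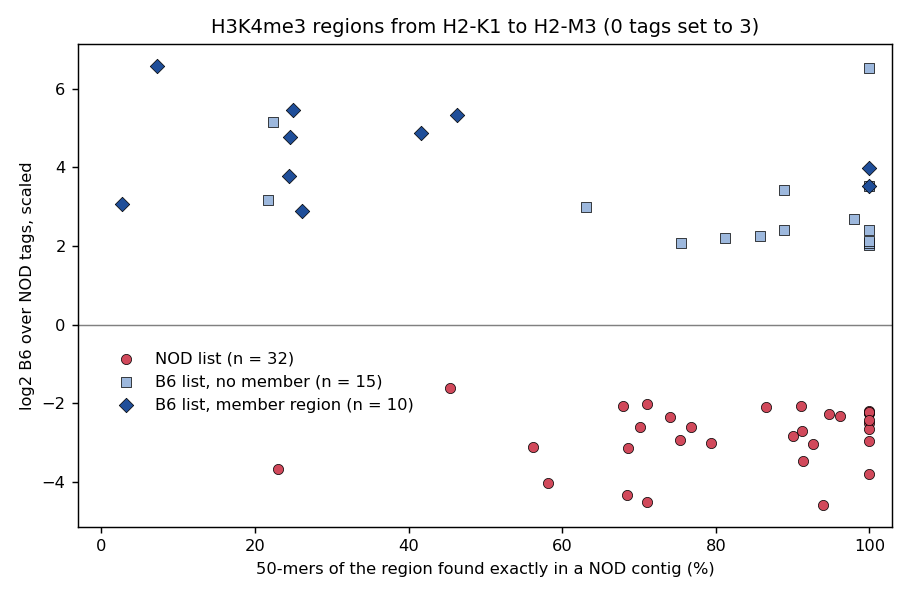
Share of each H3K4me3 region's 50-mers found in a NOD contig (horizontal axis, percent) against the log2 ratio of B6 over NOD tags scaled to library totals (vertical axis), for every listed region from H2-K1 to H2-M3. A count of 0 tags is set to 3. Of the 10 diamonds of the class I genes, 8 lie below 50% and the 2 of H2-M3 lie at 100%.

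Class I genes resemble each other, so a short read can match several places. Of the 50-mers of the Gm8909 TSS region, 73.0% occurred once in the B6 chromosomes, and for the Gm7030 TSS region the share was 60.8%. For the H2-T-ps region the share was 73.6%. For the H2-K1 region, which lies over AA388235, the share was 66.6%. There a 50-mer occurred up to 2245 times, against up to 12 times in the Gm8909 TSS region, so likeness among class I genes does not describe this share. The share was 97.2% for the region at the start of 2410017I17Rik and 100% for the region with 57 B6 tags. How the authors treated reads with several matches is not given in the sources used here, so tags in the shared part of these regions are uncertain.

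The other class I genes were read by the same rule, of which 23 of 34 listed symbols were in the annotation. In the B6 H3K4me3 list 6 had a region and in the NOD list 4, with H2-M5 in both. Of all RefSeq genes, 18.4% and 26.7% had a region in these lists, and 8.59% and 9.28% in the B6 and NOD H3K27ac lists. H2-T10, Gm10499 and H2-K2 shared regions already described, and H2-Q6 and H2-Q7 shared 1 region with 17 B6 tags and 6 NOD tags. In the H3K27ac lists, H2-T3, the next class I gene beyond Gm8909, had a B6 region at -1.79 kb from its TSS with a score of 69.9. H2-M1 and H2-M10.3 had NOD regions with scores of up to 54.2.

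Of 21 genes that load peptides on class I molecules or drive their transcription, 8 had a region in the B6 and 10 in the NOD H3K4me3 list, and 2 and 3 in the H3K27ac lists. The shares over all RefSeq genes were 18.4% and 26.7% for H3K4me3, and 8.59% and 9.28% for H3K27ac. Nlrc5, the class I transactivator, had a NOD region 0.736 kb downstream of its TSS with 3 B6 tags and 85 NOD tags, 18.4-fold higher in NOD (95% interval 6.09 to 91.1). It also had a B6 region at -42.2 kb, near the start of a longer transcript, with 17 B6 tags and 2 NOD tags. B2m, which encodes beta-2 microglobulin, had a B6 region 0.96 kb downstream that held 18 tags in B6 and 4 in NOD, 6.92-fold more (2.28 to 28.1). Psme2, a subunit of the proteasome activator, had a B6 region at its TSS that held 90 tags in B6 and 34 in NOD, 4.07-fold more (2.72 to 6.23). A NOD region at -13.1 kb from its TSS held 9 tags in B6 and 62 in NOD, 4.48-fold more in NOD (2.21 to 10.25). The transporter genes Tap1 and Tap2 and the immunoproteasome genes Psmb8, Psmb9 and Psmb10 had none in any list.

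The ES cell label could not be checked from lists of differences. Of 8 pluripotency genes, 7 had a region in the NOD and 4 in the B6 H3K4me3 list, and of 5 fibroblast genes 1 had a region in each. Among all RefSeq genes the shares were 26.7% for the NOD and 18.4% for the B6 list.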

How the data were processed

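ChIP-Seq of H3K4me3 and H3K27ac was analysed in 4 libraries, 1 for each strain and mark, of single-end 50 bp reads per the labels. The methods of the study name bowtie2, mm10 and HOMER, whereas the submitters' processing notes name CASAVA 1.8.2, STAR 2.2.0c, HOMER and mm9. For 88.9% of B6 and 88.8% of NOD H3K27ac regions with a RefSeq transcript of GRCm38.p6, the file's distance to the TSS lay within 5 bp of the distance computed here, so mm10 was used.

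Per the file headers, the authors called H3K4me3 regions with 500 bp peaks and a threshold of 8 tags, asking for 4-fold more than in the other strain's library and a Poisson p-value of 1.00e-04. The deposited signal is tags per 10000000. The deposited tag counts are whole numbers for B6 and are scaled to the B6 library for NOD, and whole tags were recovered for 100% of regions within 0.06. The deposited fold is the ratio of scaled tags. The authors' H3K27ac score is a difference between strains of unstated scale, and that file gives no tags.

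Regions were joined to genes in Python 3.11.15 with pandas 2.3.3, intervals came from scipy 1.17.1, alignments from BLAST 2.17.0 (blastn), and 50-mers were counted with numba 0.67.0. A count of 0 was set to a floor of 3 tags for a lower bound. Scripts were checked on simulated data. The genes and gene lists were chosen with earlier results of these data known. The text names all 9 genes, the genes nearest their regions, and up to 15 genes of the fixed lists. Regions of neighbours were used only where a result turned on them. No p-value was computed, since there is 1 library for each strain and mark.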

Additional observations from a re-analysis of the deposited data

How the results depend on the processing

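With 1 library for each strain and mark, no replicate could be left out. No paired analysis was possible because each group has 1 sample and the results come from no test. Of 34 alternatives, 29 kept the value within 1.5 times, among them each fold scaled by the tags outside the listed regions. Many of these could not have moved. A stricter filter leaves a count of 0 at 0, and the other scaling multiplies every fold by the same constant. The count of 29 is therefore no measure of how stable the results are. Taking H3K27ac regions by position rather than by gene name gave 2 NOD regions in place of 0. Widening the H3K4me3 window to 50 kb gave 6 NOD regions in place of 0, and 12 B6 regions in place of 10. Asking for an overlap of at least 50% of the smaller region left 0 genes with both marks in B6 in place of 1. In alternatives added after the data were seen, keeping regions with at least 90% of their 50-mers in a NOD contig left 2 B6 H3K4me3 regions, both of H2-M3, with a median fold of 13.7 in place of 21.5, by construction from fewer regions. The H3K27ac files give no number of tags, and folds with fewer than 10 NOD tags have wide intervals.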
